A study of Homo sapiens with 20 samples.

Results

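Phosphorylation of the α subunit of translation initiation factor 2 (eIF2α) is the switch of the integrated stress response. Members of this pathway were described at the RNA level as 7 genes, chosen by symbol from GENCODE, of 39918 gene rows in the count table: the 4 kinase genes EIF2AK1, EIF2AK2, EIF2AK3 and EIF2AK4, the phosphatase-subunit genes PPP1R15A and PPP1R15B, and EIF2S1, which encodes eIF2α itself. All 7 had a row, and all 7 passed the filter on low counts. The samples were HCT-116 cells, a human colorectal carcinoma line, profiled by sequencing of total RNA after removal of ribosomal RNA. There were 20 libraries in 5 groups of 4.

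Cells of the MG132 plus α-amanitin group received 20 µM MG132 together with 50 µg/ml α-amanitin for 3 h. Cells of the MG132 group received 20 µM MG132, and those of the bortezomib group 100 nM bortezomib, each for 3 h. MG132 is a peptide aldehyde and bortezomib a boronate, and both inhibit the proteasome. α-Amanitin is a mushroom toxin that inhibits RNA polymerase II. These 3 groups and the G2 group had all first been held in 2 mM thymidine for 16 h and released for 7 h. The G2 group was collected at that point, with no drug. Asynchronous cells received neither thymidine nor a drug. Each inhibitor group thus also differs from G2 by 3 h of further culture, and the effects of time and drug cannot be told apart in those comparisons. All values come from 1 cell line, and the labels do not say whether replicates were separate cultures. A p-value here reflects the spread among libraries within groups, estimated over all 5 groups together. That spread may be technical.

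When eIF2α is phosphorylated, eIF2 blocks its own nucleotide exchange factor, eIF2B, and initiation slows for most mRNAs while a few, such as ATF4, are translated better. Each kinase answers to a different stress: EIF2AK1 (HRI) to haem shortage and mitochondrial or cytosolic protein stress, EIF2AK2 (PKR) to double-stranded RNA, EIF2AK3 (PERK) to unfolded protein in the endoplasmic reticulum, and EIF2AK4 (GCN2) to uncharged tRNA and stalled ribosomes. PPP1R15A (GADD34), which stress induces, and PPP1R15B (CReP), which is made constitutively, each bring protein phosphatase 1 to eIF2α and so reverse the mark. The kinases are activated at the protein level, and phosphorylation of eIF2α was not measured in these libraries.

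Sequence at the RefSeq starts of the phosphatase-subunit genes is shown because they are the stress-inducible and the constitutive form of the same regulator. RefSeq (GRCh38.p14) gave a promoter for 6 of the 7 genes, and the 250 bases before the start are printed 5′ to 3′ on the gene's strand. The window of PPP1R15A is chr19:48872171-48872420 on the plus strand, and that of PPP1R15B is chr1:204411818-204412067 on the minus strand. RefSeq and GENCODE place some starts differently: the end of the PPP1R15A window lies inside the gene as GENCODE gives it, and the EIF2S1 window (chr14:67360078-67360327) lies wholly inside. Capitals mark TGACGTCA, the palindromic cAMP response element recognised by ATF and CREB family factors, and TGATGNAA, the core of the composite element recognised by ATF4 with a C/EBP partner.
PPP1R15A: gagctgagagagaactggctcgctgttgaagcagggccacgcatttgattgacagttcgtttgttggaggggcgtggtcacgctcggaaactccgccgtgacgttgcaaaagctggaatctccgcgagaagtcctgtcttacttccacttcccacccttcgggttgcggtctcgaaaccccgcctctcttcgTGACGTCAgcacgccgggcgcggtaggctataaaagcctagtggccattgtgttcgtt
PPP1R15B: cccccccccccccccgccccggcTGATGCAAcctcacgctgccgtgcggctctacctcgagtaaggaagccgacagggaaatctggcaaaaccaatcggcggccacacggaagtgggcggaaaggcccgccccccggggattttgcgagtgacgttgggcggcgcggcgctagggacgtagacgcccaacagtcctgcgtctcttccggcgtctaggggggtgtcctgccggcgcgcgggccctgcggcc
TGACGTCA began 58 bases before the PPP1R15A start and is held by 1.65% of the 35116 promoter windows of this length. TGATGCAA began 227 bases before the PPP1R15B start, and TGATGNAA is held by 3.14% of all windows. TGATGNAA was not in the PPP1R15A window, and TGACGTCA was not in that of PPP1R15B. Neither element was in the windows of EIF2AK2, EIF2AK3, EIF2AK4 or EIF2S1. The heat shock element core GAANNTTC (5.78% of all windows) was in none of the 6 windows. Both strands were searched, the motifs were chosen after the windows had been read, and a match is a description of the letters only.

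Library totals ran from 26797395 to 39710457 counts. Levels are CPM, counts relative to library size after trimmed-mean (TMM) scaling. With this scaling they are relative to the bulk of the RNAs counted, so a loss shared by all mRNAs would not show. Fewer cells with an RNA and less of it per cell cannot be told apart. Fold changes are log2 values from edgeR's quasi-likelihood test with Benjamini-Hochberg adjustment over 18959 genes, with 0.05 as the threshold for a call. Of 10 epithelial markers 7 passed the filter, with summed levels of 3140.0 to 5869.0 CPM over all groups, while CDX1 and CEACAM5 were under 0.1 CPM in every group. Only 2 of 10 fibroblast markers and 2 of 10 leukocyte markers passed, with sums of 3.98 to 14.2 CPM and 1.69 to 6.55 CPM. In 4 libraries the level of a gene depended on its GC content more than in the others. The slope, in log2 units per 10 points of GC, was 0.74 in MG132 replicate 4, -0.41 in MG132 replicate 2, 0.36 in G2 replicate 2 and 0.50 in asynchronous replicate 3, against -0.27 to 0.20 in the remaining libraries. Values given without these 4 libraries rest on 2 libraries of MG132, 3 of G2 and 3 of asynchronous cells.

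PPP1R15A was called in 3 of 6 comparisons, and the other 6 genes in none of theirs. Against G2, 1 of 7 members was called with MG132 and 1 of 7 with bortezomib, beside 2.08% and 1.15% of all genes. With MG132 plus α-amanitin, 1 of 7 was called against MG132 and 0 of 7 against G2, beside 2.19% and 3.35% of all genes. For MG132 against bortezomib and for G2 against asynchronous 0 of 7 were called by edgeR, beside 0.0369% and 2.09% of all genes. In the 3 comparisons with 0 members called, an unadjusted p under 0.05 was reached by 1 of 7 for MG132 plus α-amanitin against G2, 1 of 7 for MG132 against bortezomib and 0 of 7 for G2 against asynchronous. DESeq2 also called 0 of 7 in each of these 3.

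**Figure D1:**
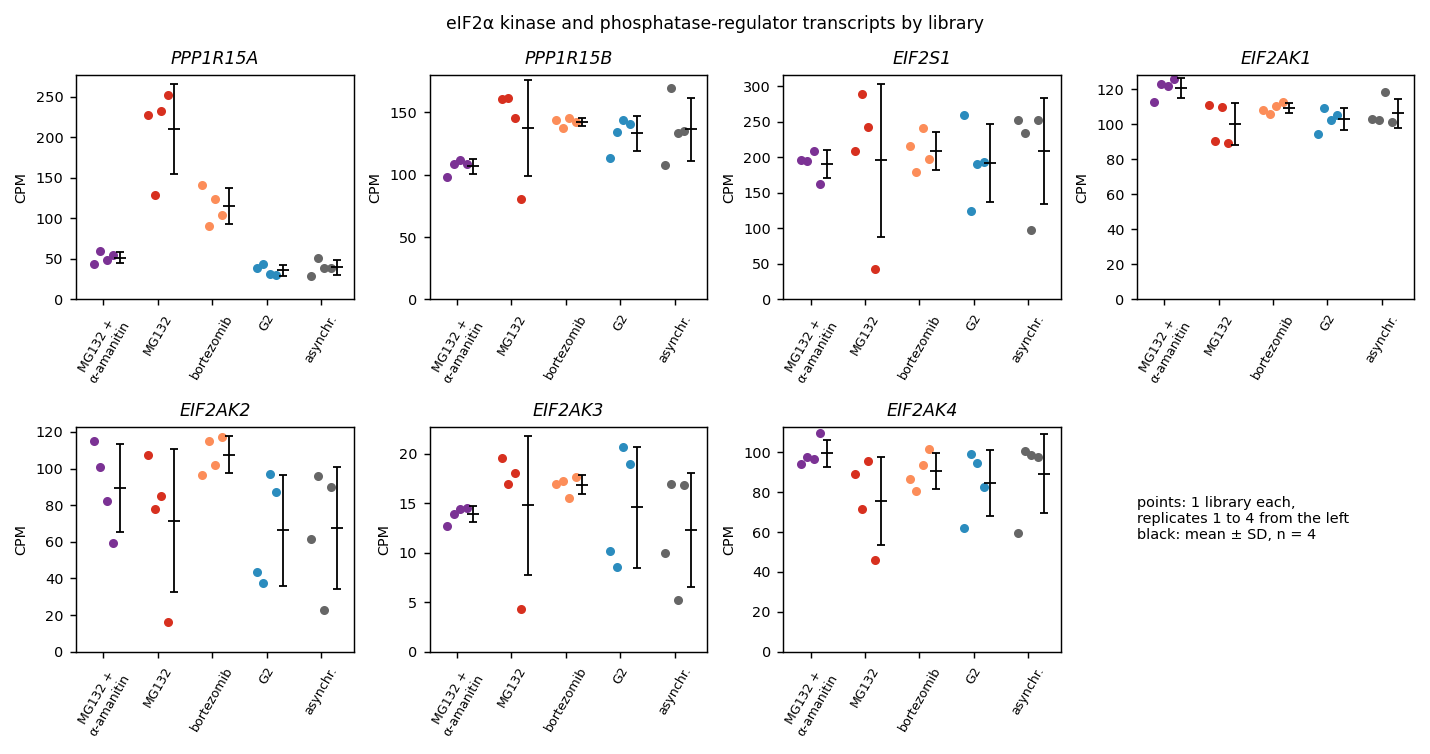
CPM (linear axis from 0) of each gene in every library, grouped by treatment, with the mean ± SD (n = 4) in black. PPP1R15A sits at 128.1 to 251.4 CPM with MG132 and at 30.2 to 43.2 CPM in G2, while the groups of the other 6 genes mostly overlap.

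PPP1R15A (ENSG00000087074.8, chr19:48872392-48876057, plus strand) encodes the inducible phosphatase subunit. Its level was 43.7, 59.1, 49.1 and 54.4 CPM in the 4 libraries with MG132 plus α-amanitin and 227.5, 128.1, 232.2 and 251.4 CPM in those with MG132. It was 140.9, 90.7, 124.2 and 103.7 CPM with bortezomib. In G2 it was 38.4, 43.2, 30.9 and 30.2 CPM, and in asynchronous cells 29.4, 51.5, 38.2 and 38.5 CPM. Every MG132 and every bortezomib library was above every G2 library. MG132 replicate 2 lay within the bortezomib range, and the G2 and asynchronous libraries overlapped.

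With MG132, PPP1R15A averaged 209.8 ± 55.5 CPM, against 35.7 ± 6.28 CPM in G2 (SD, n = 4 each). The log2 fold change was 2.56 ± 0.239 (SE), a 5.88-fold rise with a 95% interval of 4.16 to 8.31 and an adjusted p of 1.4e-06 (edgeR). It was the gene ranked 15 by p among 18959, and 65 by highest fold change. Without the 4 GC-skewed libraries the log2 fold change was 2.76. With bortezomib the mean was 114.9 ± 22.2 CPM, a 3.22-fold rise over G2 (95% interval 2.30 to 4.50, adjusted p = 0.000515 by edgeR). The gene ranked 19 by p there.

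Both proteasome inhibitors therefore had more PPP1R15A RNA than G2, and their own difference was less secure. MG132 stood 1.83-fold above bortezomib (log2 0.87 ± 0.227 SE, 95% interval 0.39 to 1.34). The adjusted p was 0.617 by edgeR and 0.0798 by DESeq2, and the libraries overlapped. Leaving out the GC-skewed libraries gave a log2 fold change of 1.01 with an adjusted p of 0.161 (edgeR). The doses were 20 µM for MG132 and 100 nM for bortezomib, so the agents were not compared at a matched dose.

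Adding α-amanitin to MG132 left PPP1R15A at 51.6 ± 6.64 CPM, against 209.8 ± 55.5 CPM with MG132 (SD, n = 4 each). The log2 fold change was -2.02 ± 0.234 (SE), which leaves 0.246 of the MG132 level, with an adjusted p of 2.35e-05 (edgeR). No library of one group reached the other, and the gene ranked 29 by p. Compared with G2, all 4 libraries with MG132 plus α-amanitin, at 43.7 to 59.1 CPM, were above the G2 range of 30.2 to 43.2 CPM. The gap between these ranges is narrow, and the log2 fold change of 0.53 ± 0.227 (SE) did not pass in edgeR's test across all genes (adjusted p = 0.269). With mitochondrial mRNA as the scale this log2 fold change was 0.12. G2 and asynchronous cells differed by -0.14 on the log2 scale (95% interval -0.62 to 0.33, adjusted p = 0.895, edgeR), and this sign turned when asynchronous replicate 2 was left out (0.01).

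The sample codes carry a letter whose meaning the labels do not give, and it is not balanced over groups. Within the letter O, PPP1R15A was 2.82 higher on the log2 scale with MG132 than in G2 (2 libraries against 3), and within L it was 1.74 higher (1 against 1). With bortezomib it was 2.04 higher than in G2 within O (1 against 3). With α-amanitin added, it was lower than with MG132 in each of the 3 letters that hold both groups, by -2.38 in K, -1.12 in L and -2.15 in O. In all 3 called comparisons the libraries of the groups did not overlap, so the direction within a letter could not differ from the pooled one. These values therefore do not test an effect of the letter. For G2 against asynchronous cells, which was not called, the difference was 0.39 in L (1 against 1) and -0.16 in O (3 against 1).

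By a measure of likeness over all 20 libraries, 3 protein-coding genes followed PPP1R15A most closely among 9673. The measure is the root mean square difference of centred log2 CPM, and PPP1R15A's own spread on it was 1.011. STC2, which encodes the secreted glycoprotein stanniocalcin 2, differed by 0.219. SERPINH1, the collagen chaperone HSP47, differed by 0.337, and BAG3, a co-chaperone of HSP70, by 0.348. STC2 averaged 81.7 CPM with MG132 plus α-amanitin, 287.7 CPM with MG132, 185.7 CPM with bortezomib, 47.4 CPM in G2 and 62.3 CPM in asynchronous cells. The group means of STC2 stood in the same order as those of PPP1R15A. This is no separate result, as the genes were picked for likeness over these same libraries. Unlike PPP1R15A, SERPINH1 and BAG3 had higher means in G2 than in asynchronous cells (178.3 against 160.0 CPM and 88.0 against 86.5 CPM).

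PPP1R15B (ENSG00000158615.9, chr1:204403387-204411791, minus strand), the constitutive subunit, was not called in any of the 6 comparisons. It averaged 106.7 ± 5.99 CPM with MG132 plus α-amanitin, 137.3 ± 38.3 CPM with MG132, 142.2 ± 3.37 CPM with bortezomib, 133.2 ± 13.8 CPM in G2 and 136.3 ± 25.1 CPM in asynchronous cells (SD, n = 4 each). MG132 replicate 4 was low, at 80.9 CPM, while the other 3 MG132 libraries held 145.8 to 161.6 CPM. With MG132 plus α-amanitin the 4 libraries were at 98.0 to 111.6 CPM, against 113.5 to 144.1 CPM in G2, so these groups did not overlap. The log2 fold change there was -0.32 ± 0.198 (SE), and it did not pass (adjusted p = 0.519, edgeR), nor did the value of -0.72 with mitochondrial mRNA as the scale. Against MG132 it was -0.36 ± 0.198 (SE, adjusted p = 0.485, edgeR). Without the GC-skewed libraries the comparison with MG132 gave -0.52 with an adjusted p of 0.110 (edgeR).

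Both subunits direct the same phosphatase to the same substrate, and their counts were also set against each other within each library. This ratio does not depend on library scaling, though it does carry any GC effect, since the GC content is 58.8% for PPP1R15A and 43.4% for PPP1R15B. PPP1R15A counts were 0.439 to 0.544 of PPP1R15B counts with MG132 plus α-amanitin and 0.792 to 3.11 with MG132. They were 0.659 to 0.978 with bortezomib, 0.214 to 0.339 in G2 and 0.272 to 0.305 in asynchronous cells. In 3 of 4 MG132 libraries PPP1R15A had the higher count of the pair, and in every library of the other 4 groups PPP1R15B did. Counts are not corrected for exon length, which over all annotated exons is 3093 bases for PPP1R15A and 5227 bases for PPP1R15B. Per kilobase of exon the order differed: with bortezomib PPP1R15A averaged 37.1 and PPP1R15B 27.2 CPM per kb. In MG132 replicate 2 they were at 41.4 and 30.9 CPM per kb. The value of 3.11 is MG132 replicate 4, the library with the steepest GC slope. Every library with MG132 plus α-amanitin lay above every G2 library and below every MG132 library in this ratio, for which no test was run. Both genes enter the gap to G2: the log2 fold change there was 0.53 for PPP1R15A and -0.32 for PPP1R15B, neither called.

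**Figure D2:**
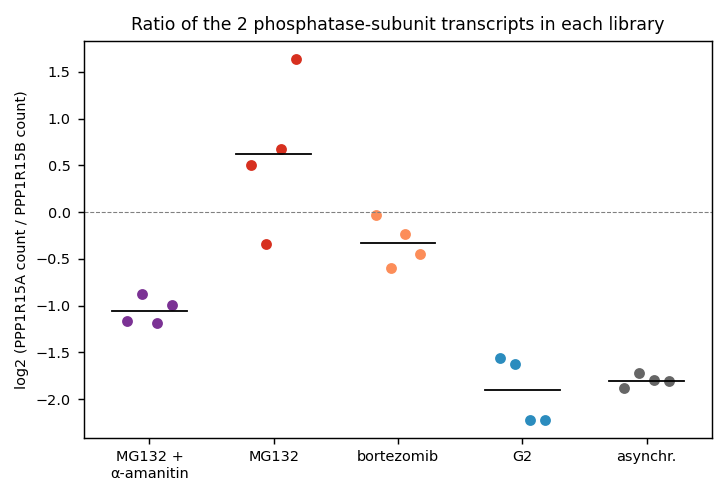
Log2 of the PPP1R15A count over the PPP1R15B count in each of the 20 libraries (points) with the group mean (line). The dashed line marks equal counts, with no correction for exon length. Group means are -1.06 with MG132 plus α-amanitin, 0.62 with MG132, -0.33 with bortezomib, -1.91 in G2 and -1.80 in asynchronous cells.

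EIF2S1 (ENSG00000134001.14, chr14:67359997-67386516, plus strand), the substrate, had similar means in all groups, and none of its 6 tests was called. It averaged 190.5 ± 19.7 CPM with MG132 plus α-amanitin, 195.9 ± 107.5 CPM with MG132 and 208.5 ± 26.6 CPM with bortezomib. G2 had 192.4 ± 55.1 CPM and asynchronous cells 209.3 ± 74.5 CPM (SD, n = 4 each). The wide spreads come with low libraries: 42.4 CPM in MG132 replicate 4, 125.1 CPM in G2 replicate 2 and 98.3 CPM in asynchronous replicate 3. In G2 a high library added to the spread, replicate 1 at 260.1 CPM, which is not GC-skewed. In the libraries without the GC skew EIF2S1 ran from 162.4 to 260.1 CPM. It shares 269 exon bases with ATP6V1D on the opposite strand.

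EIF2AK1 (ENSG00000086232.13, chr7:6022244-6059230, minus strand), the HRI gene, had the tightest values of the 4 kinase genes. It averaged 120.8 ± 5.67 CPM with MG132 plus α-amanitin, 100.2 ± 11.9 CPM with MG132 and 109.2 ± 2.90 CPM with bortezomib, against 102.8 ± 6.24 CPM in G2 and 106.2 ± 8.16 CPM in asynchronous cells (SD, n = 4 each). All 4 libraries with MG132 plus α-amanitin, at 112.7 to 125.8 CPM, were above all MG132 libraries (89.2 to 110.9 CPM) and all G2 libraries (94.5 to 109.3 CPM). The differences were small and did not pass: the log2 fold change was 0.27 ± 0.141 against MG132 (adjusted p = 0.459) and 0.23 ± 0.141 against G2 (adjusted p = 0.508; SE, edgeR). The 2 low MG132 values, 89.2 CPM in replicate 4 and 90.7 CPM in replicate 2, are GC-skewed libraries, and without the skewed libraries the value against MG132 was 0.13 (adjusted p = 0.675, edgeR). Scaled to mitochondrial mRNA, the value against G2 was -0.16. EIF2AK1 shares 532 exon bases with AIMP2 on the opposite strand, and the strand setting of the counting is not given in the sources used here, so part of its count may belong to AIMP2.

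EIF2AK2 (ENSG00000055332.18, chr2:37099210-37157065, minus strand), the PKR gene, varied widely between replicates. Its 4 libraries held 114.9, 100.9, 82.5 and 59.6 CPM with MG132 plus α-amanitin, 107.5, 77.9, 84.8 and 16.3 CPM with MG132, and 96.5, 115.1, 101.8 and 117.1 CPM with bortezomib. G2 libraries held 43.3, 37.3, 97.2 and 87.3 CPM, and asynchronous libraries 61.5, 96.2, 22.7 and 89.7 CPM. Bortezomib had the highest mean, 107.6 ± 10.1 CPM, against 66.3 ± 30.4 CPM in G2 (SD, n = 4 each). The log2 fold change of 0.70 ± 0.458 (SE) had a 95% interval of -0.26 to 1.66 and did not pass (adjusted p = 0.490, edgeR), and the groups overlapped. Without the GC-skewed libraries it was 0.47. EIF2AK2 shares 401 exon bases with the pseudogene AC007899.1 on the opposite strand.

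EIF2AK2 is itself an interferon-induced gene, so the interferon-stimulated genes were counted beside it. Of 18 tested, 1 was called over the 6 comparisons. The call was in G2 against asynchronous cells, beside 2.09% of all genes there, and was higher in G2. This was OASL, a member of the oligoadenylate synthetase family, at 5.21 ± 2.23 CPM in G2 and 1.42 ± 0.51 CPM in asynchronous cells (SD, n = 4 each; log2 fold change 1.88, adjusted p = 0.0284, edgeR), and it stayed called without the GC-skewed libraries (2.15, adjusted p = 0.0297, edgeR). The median log2 fold change of the 18 was 0.62 in that comparison, beside -0.04 for all genes. Some of the 18 were near the floor, such as OAS1 at 0.35 CPM in G2 and 0.0424 CPM in asynchronous cells. Others were not, such as OAS3 at 70.7 and 49.1 CPM. EIF2AK2 averaged 66.3 ± 30.4 CPM in G2 and 67.5 ± 33.5 CPM in asynchronous cells. Its 9 listed regulators, among them the activator PRKRA (PACT), had 0 called in all 6 comparisons.

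EIF2AK3 (ENSG00000172071.14, chr2:88556741-88627576, minus strand), the PERK gene, was the least abundant member, with raw counts of 127 to 717 per library. It averaged 13.9 ± 0.81 CPM with MG132 plus α-amanitin, 14.8 ± 7.05 CPM with MG132, 16.9 ± 0.98 CPM with bortezomib, 14.6 ± 6.13 CPM in G2 and 12.3 ± 5.72 CPM in asynchronous cells (SD, n = 4 each). Low libraries were again MG132 replicate 4 (4.29 CPM), asynchronous replicate 3 (5.23 CPM) and G2 replicate 2 (8.52 CPM). The unskewed G2 replicate 1 and asynchronous replicate 1 were also low, at 10.2 and 10.0 CPM. EIF2AK3 shares 781 exon bases with the antisense gene AC104134.1, so its counts carry the same uncertainty of strand as those of EIF2AK1.

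Of 9 genes for endoplasmic reticulum stress sensing around PERK, 2 were called with MG132 against G2, both higher, beside 2.08% of all genes. HSPA5, the BiP chaperone that holds PERK inactive, had 676.6 ± 109.6 CPM with MG132 and 394.9 ± 56.6 CPM in G2 (log2 fold change 0.78, adjusted p = 0.0222, edgeR). XBP1, the transcription factor activated by IRE1, had 156.6 ± 49.4 CPM with MG132 and 72.5 ± 17.3 CPM in G2 (log2 fold change 1.11, adjusted p = 0.0324, edgeR). The same 2 genes were called lower with MG132 plus α-amanitin than with MG132, beside 2.19% of all genes called. The log2 fold change there was -0.78 for HSPA5 and -1.52 for XBP1. Without the GC-skewed libraries HSPA5 stayed called in both comparisons (0.89 against G2 and -0.91), while XBP1 was called in neither: 0.74 for MG132 against G2 (adjusted p = 0.264) and -1.08 for MG132 plus α-amanitin against MG132 (adjusted p = 0.0529, edgeR). That fit held only 2 MG132 libraries, so a lost call may also reflect the smaller number. With bortezomib against G2, 0 of 9 were called, and HSPA5 had a log2 fold change of 0.70 with an adjusted p of 0.0580, or 0.67 and 0.0471 without the GC-skewed libraries (edgeR). EIF2AK3 was called in none of these comparisons.

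EIF2AK4 (ENSG00000128829.12, chr15:39934146-40035591, plus strand), the GCN2 gene, averaged 99.6 ± 6.82 CPM with MG132 plus α-amanitin, 75.6 ± 22.1 CPM with MG132, 90.6 ± 8.96 CPM with bortezomib, 84.5 ± 16.5 CPM in G2 and 89.3 ± 19.7 CPM in asynchronous cells (SD, n = 4 each). The log2 fold change of MG132 plus α-amanitin against MG132 was 0.40 ± 0.223 (SE, adjusted p = 0.502, edgeR). It was 0.11 without the GC-skewed libraries and 0.22 without MG132 replicate 4 alone. The lowest values were 46.0 CPM in MG132 replicate 4, 59.7 CPM in asynchronous replicate 1 and 62.0 CPM in G2 replicate 1, and the last 2 are not GC-skewed. Of 7 listed regulators of GCN2, including its partner GCN1, 0 were called in all 6 comparisons.

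Over all 36 tests of the 6 genes other than PPP1R15A, 0 reached an unadjusted p under 0.05, and the smallest was 0.0708. DESeq2 called 0 of them. Their log2 fold changes lay between -0.59 and 0.70. The 95% intervals reached down to -1.54 and up to 1.66, both for EIF2AK2, so changes of up to that size lie within what these libraries allow. In 3 of the 36 the groups did not overlap, and these were the EIF2AK1 and PPP1R15B results with α-amanitin given above. With PPP1R15A counted, the libraries of 3 of 7 members did not overlap between MG132 plus α-amanitin and G2, beside 15% of all genes, and of 2 of 7 between MG132 plus α-amanitin and MG132, beside 8.83%. The count was 1 of 7 for MG132 against G2, beside 6.52% of all genes, and 1 of 7 for bortezomib against G2, beside 15.2%.

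**Figure D3:**
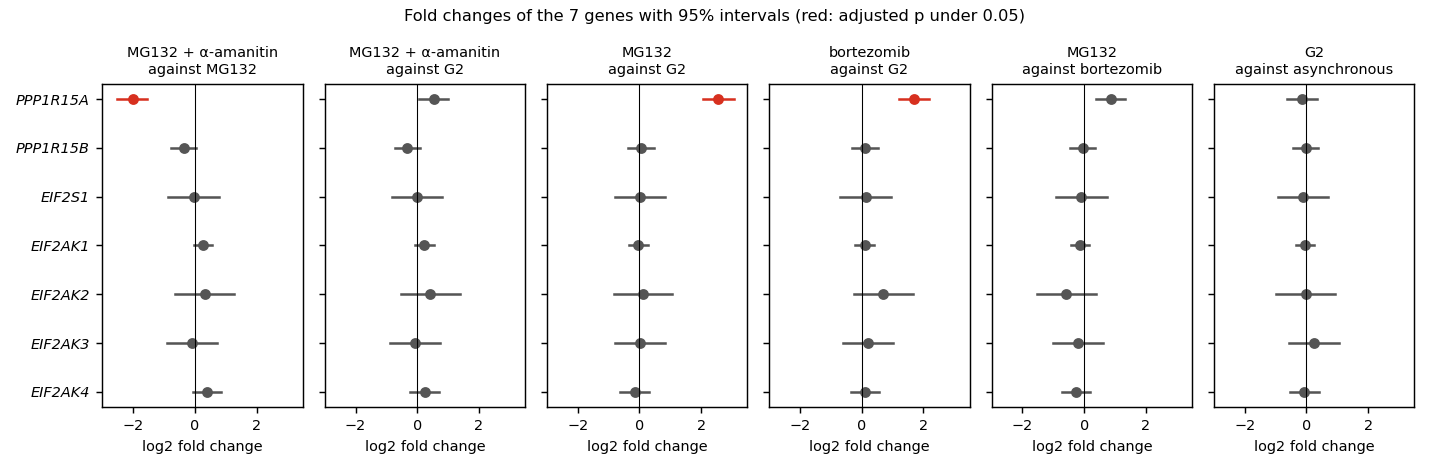
Log2 fold changes of the 7 genes (points) with 95% intervals (lines) in 6 comparisons, the first-named group over the second. Red marks an adjusted p under 0.05: PPP1R15A at -2.02, 2.56 and 1.69, while the other genes lie between -0.59 and 0.70.

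The members were not alike in the 4 GC-skewed libraries, and each is compared here with the mean of the unskewed libraries of its group. The GC content of the longest transcript was 38.7% for EIF2AK2, 39.2% for EIF2S1, 43.4% for PPP1R15B and 44.4% for EIF2AK3. It was 46.8% for EIF2AK1, 47.3% for EIF2AK4 and 58.8% for PPP1R15A. In MG132 replicate 4, set against the mean of the 2 unskewed MG132 libraries, the log2 difference was -2.56 for EIF2AK2, -2.41 for EIF2S1, -2.13 for EIF2AK3 and -1.0 for EIF2AK4. It was -0.92 for PPP1R15B, -0.31 for EIF2AK1 and 0.13 for PPP1R15A. In asynchronous replicate 3 the difference was -1.86 for EIF2AK2, -1.48 for EIF2AK3 and -1.32 for EIF2S1, and in G2 replicate 2 it was -1.03, -0.96 and -0.78 for these genes. EIF2AK1 and EIF2AK4 were higher in both, by 0.21 and 0.20 in asynchronous replicate 3 and by 0.12 and 0.31 in G2 replicate 2. PPP1R15A was at -0.06 in asynchronous replicate 3 and 0.38 in G2 replicate 2. PPP1R15B, with a lower GC content than EIF2AK3, was at -0.04 and 0.01 in these libraries. In MG132 replicate 2, whose slope is negative, PPP1R15A was at -0.84, EIF2AK4 at -0.36, EIF2AK2 at -0.30, EIF2AK1 at -0.28 and EIF2AK3 at -0.15, while EIF2S1 was at 0.36 and PPP1R15B at 0.08. Low values of EIF2AK2, EIF2AK3 and EIF2AK4 also occurred in the unskewed G2 replicate 1, at 43.3, 10.2 and 62.0 CPM. The part of GC content in these values was not tested.

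**Figure D4:**
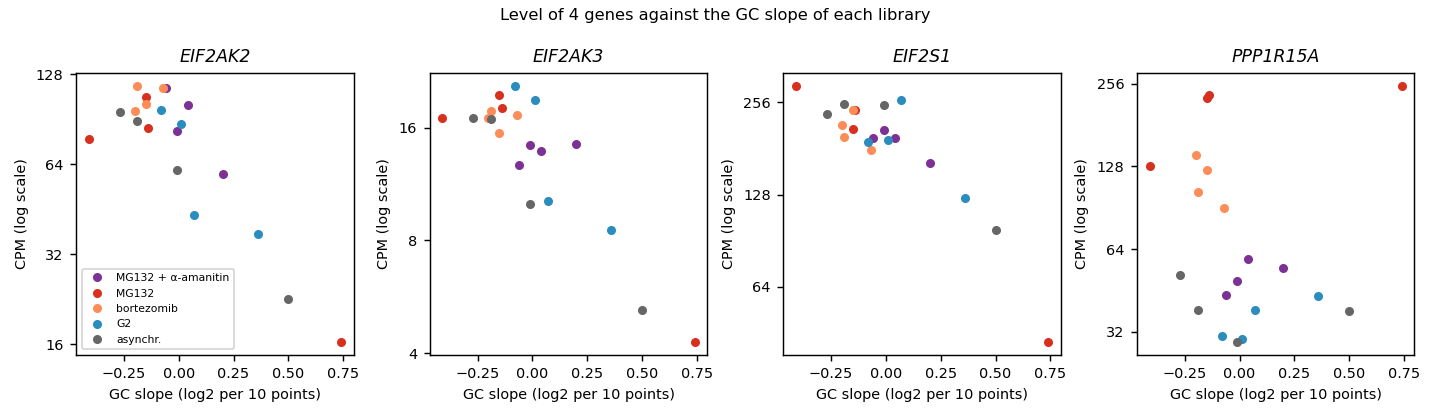
CPM (log axis) of 4 genes against the GC slope of the library (log2 per 10 points of GC) for all 20 libraries, coloured by group. EIF2AK2, EIF2AK3 and EIF2S1 are lowest in MG132 replicate 4, which has the steepest slope (0.74), and PPP1R15A has its highest value, 251.4 CPM, in the same library.

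Per kilobase of exon, PPP1R15A changed its place among the 7 levels with treatment. Exon length here covers all annotated exons of a gene, used in these cells or not, so close ranks between genes depend on the annotation. In G2, EIF2S1 was highest at 34.0 ± 9.76 CPM per kb, followed by PPP1R15B at 25.5 ± 2.63, EIF2AK1 at 18.5 ± 1.12 and PPP1R15A at 11.5 ± 2.03 CPM per kb (SD, n = 4). EIF2AK4 at 7.07 ± 1.38 and EIF2AK2 at 6.16 ± 2.83 CPM per kb did not differ beyond their spread, and EIF2AK3 was lowest at 2.69 ± 1.13 CPM per kb. With MG132, PPP1R15A had the highest group mean, 67.8 ± 17.9 CPM per kb. In MG132 replicate 2, however, EIF2S1 was above it, at 51.3 against 41.4 CPM per kb. With bortezomib its 37.1 ± 7.17 CPM per kb lay level with the 36.9 ± 4.70 CPM per kb of EIF2S1. With MG132 plus α-amanitin it was at 16.7 ± 2.15 CPM per kb, below EIF2AK1 at 21.8 ± 1.02 and PPP1R15B at 20.4 ± 1.15 CPM per kb.

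The transcripts that lie downstream of eIF2α phosphorylation were counted as a list of 8, which was known from earlier results to hold genes raised by MG132. With MG132 against G2, 7 of 8 were called higher, beside 2.08% of all genes called in either direction. The median log2 fold change was 2.27, beside -0.03 for all genes. CHAC1, a glutathione-degrading enzyme, had 88.7 ± 17.5 CPM with MG132 and 2.07 ± 0.616 CPM in G2, SESN2 (sestrin 2) had 132.9 ± 43.0 and 11.6 ± 0.91 CPM, and the transcription factor ATF3 had 275.0 ± 63.0 and 14.5 ± 4.37 CPM (SD, n = 4 each). Without the GC-skewed libraries their log2 fold changes were 5.34 for CHAC1, 3.45 for SESN2 and 4.17 for ATF3, all still called. ATF5, at a log2 fold change of -0.48, was the member not called. With bortezomib against G2, 5 of 8 were called higher, beside 1.15% of all genes called in either direction. The 3 not called were ATF4 (0.66), TRIB3 (0.66) and ATF5 (-0.16). With MG132 plus α-amanitin against MG132, 7 of 8 were called lower, with a median of -1.98, beside 2.19% of all genes called. Against G2, 2 of 8 were still called higher in MG132 plus α-amanitin, beside 3.35% of all genes called in either direction. They were CHAC1, by 1.78, and ATF3, by 1.63 on the log2 scale. SESN2, at 0.83 (adjusted p = 0.0612), was called there without the GC-skewed libraries (0.85, adjusted p = 0.0257, edgeR). PPP1R15A, itself a target of ATF4, was at 0.53 there.

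The rest of the pathway had no call. Of 7 genes for the remaining eIF2 and eIF2B subunits, 0 were called in all 6 comparisons, with log2 fold changes of MG132 against G2 between -0.17 and 0.46. The 5 genes for protein phosphatase 1 catalytic subunits and for actin, a cofactor of the PPP1R15 subunits, had 0 called and values between -0.13 and 0.49 in that comparison. The 4 genes listed around the mitochondrial signal to HRI, including the protease OMA1 and its substrate DELE1, had 0 called and values between -0.23 and 0.33. A list of 6 other genes for translation initiation held EIF2A, EIF2D, MCTS1, DENR, EIF5 and EIF5B. It had 0 called as well, with values between -0.28 and 0.89.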

How the data were processed

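Per the labels' protocols, RNA of HCT-116 cells was freed of ribosomal RNA and sequenced as stranded libraries. The authors deposited raw counts, unnormalised, in a table of 41092 genes and repeat subfamilies by 20 libraries, with 0 columns left out here. The submitters' processing notes name FastQC, cutadapt 1.18, STAR and the build hg38, with counting tool, annotation and strand setting not given in the sources used here. Names were matched for 39900 genes. Positions, exon lengths and overlaps come from GENCODE release 29.

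Genes and repeats shared 1 fit with edgeR 4.0.16 in R 4.3.3 (filterByExpr, TMM, robust glmQLFit and glmQLFTest, 5 group means, 15 residual degrees of freedom, biological coefficient of variation 33.3%). DESeq2 1.42.0 was an alternative, besides other scalings, no filter, blocks, pairs of groups alone and left-out libraries. CPM were computed here from the deposited counts, and intervals are at 95%. The 7 genes, the lists, the rule (all 7 members, up to 3 genes per list by smallest p, and genes left uncalled where most of a list was called) and the alternatives were chosen with earlier results of these data known.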

Additional observations from a re-analysis of the deposited data

Results flagged for a closer look

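In groups of 4, a library was picked out when its gap to the nearest other library divided by the group's range, was over Dixon's 95% critical value. Of 35 groups of values examined for the 7 genes, 4 held such a library, and chance gives about 1 in 20. EIF2AK3 was lowest in MG132 replicate 4, at 4.29 CPM. EIF2S1 was lowest in asynchronous replicate 3, at 98.3 CPM, and EIF2AK1 was highest in the same library, at 118.4 CPM. EIF2AK4 was lowest in asynchronous replicate 1, at 59.7 CPM. The first 2 libraries are among the 4 with a GC slope, and asynchronous replicate 1, with a slope of -0.01, is not.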

How the results depend on the processing

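The 3 PPP1R15A calls kept their direction and stayed under the threshold in all 51 alternative values. The log2 fold change ran from 2.31 to 2.76 for MG132 against G2 (highest adjusted p 0.00244), from 1.48 to 1.88 for bortezomib against G2 (0.0464, with mitochondrial mRNA scaling) and from -2.20 to -1.87 for MG132 plus α-amanitin against MG132 (0.00544), all by edgeR or DESeq2. Of 663 alternative values of the member results that were not called, 0 became called. MG132 against bortezomib ran from 0.68 to 1.05 for PPP1R15A (adjusted p 0.0798 to 1.0), and MG132 plus α-amanitin against G2 from 0.12 to 0.64 (adjusted p 0.0769 to 0.849). In sign, 97 of the 663 were opposite to the main value, in 31 results, all with a log2 fold change of at most 0.43 in size, and the opposite values lay between -0.29 and 0.49. Among values given above, PPP1R15A in G2 against asynchronous ran from -0.26 to 0.01 when single libraries were left out, and EIF2AK1 in MG132 plus α-amanitin against G2 was -0.16 under mitochondrial mRNA scaling. The cause was not tested. That scaling moved the median of all genes by -0.26 for MG132, -0.21 for bortezomib and -0.41 for MG132 plus α-amanitin, each against G2, and by -0.15 for MG132 plus α-amanitin against MG132. Scaling by library total moved it by -0.12 for MG132 against G2, 0.17 for MG132 plus α-amanitin against MG132 and 0.16 for G2 against asynchronous.

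With mitochondrial mRNA scaling the count of all genes called was 208 for MG132 against G2, 99 for bortezomib against G2, 983 for MG132 plus α-amanitin against G2, 3 for MG132 against bortezomib and 149 for G2 against asynchronous. Library-total scaling gave 4 for MG132 against bortezomib and 677 for G2 against asynchronous. DESeq2 gave 647, 621, 1005, 718, 19 and 714 for MG132 against G2, bortezomib against G2, MG132 plus α-amanitin against G2, MG132 plus α-amanitin against MG132, MG132 against bortezomib and G2 against asynchronous. Fitting only the groups compared gave 86 for MG132 against G2, 386 for bortezomib against G2, 189 for MG132 plus α-amanitin against MG132, 3 for MG132 against bortezomib and 8 for G2 against asynchronous. A block for the code letter gave 204 for MG132 against G2, 30 for bortezomib against G2, 224 for MG132 plus α-amanitin against G2, 0 for MG132 against bortezomib and 110 for G2 against asynchronous. Without the 4 GC-skewed libraries there were 425 for bortezomib against G2 and 874 for G2 against asynchronous.

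With single libraries left out, the count ran from 203 (MG132 replicate 3) to 673 (MG132 replicate 4) for MG132 against G2 and from 88 (bortezomib replicate 1) to 181 (G2 replicate 3) for bortezomib against G2. It ran from 297 (MG132 plus α-amanitin replicate 1) to 679 (G2 replicate 3) for MG132 plus α-amanitin against G2 and from 186 (MG132 plus α-amanitin replicate 1) to 547 (MG132 replicate 4) for MG132 plus α-amanitin against MG132. It ran from 1 (bortezomib replicate 3 or 4) to 10 (MG132 replicate 2) for MG132 against bortezomib and from 143 (asynchronous replicate 4) to 457 (asynchronous replicate 3) for G2 against asynchronous.

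Replicate numbers do not pair the samples: same-numbered libraries of different groups had correlations of -0.61 to 0.61 (40 pairs, 12 of them over 0.1), and 4 of 20 libraries correlated best with their own number. With a replicate block, genes called were 258 for MG132 against G2, 120 for bortezomib against G2, 3 for MG132 against bortezomib and 238 for G2 against asynchronous, and no member call changed.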
